A study of Homo sapiens with 6 samples.

Results

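Interferon-stimulated genes and the transcription factor ISGF3 were followed in RNA-seq of 8505C cells, an established cell line of anaplastic thyroid cancer (ATC), after knockdown of the kinetochore gene NUF2. The set held 43 genes, chosen by name from the 32985 genes of the deposited table: STAT2 and IRF9 of ISGF3, other interferon regulatory factors, the type I interferon receptor, cytosolic RNA sensors, and well known interferon targets. All 43 had a row. A mean of at least 1 FPKM (fragments scaled by gene length and library size) over the 6 libraries was reached by 34 of them, and these were tested among 11725 genes. The other 9 (DHX58, OAS2, MX1, MX2, RSAD2, CMPK2, XAF1, IFI44L and USP18) were below it and are given as values.

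The study compared 8505C cells transfected with control siRNA (siCtrl, n = 3) with 8505C cells transfected with an siRNA against NUF2 (siNUF2, n = 3). The genotype label was WT for siCtrl and NUF2 knockdown for siNUF2, and all 6 libraries came from cells grown in the same medium with serum, transfected with the same reagent, and labelled 24 h. There was no library of untransfected or mock-transfected cells, so a change that both siRNAs or the reagent made cannot be seen as a difference between groups. The cells are 1 line, and the labels do not say whether libraries of a group came from separate cultures, so p-values measure the spread between these libraries only. Libraries carry a number from 1 to 3 in each group, and libraries that share a number deviated together, as described below.

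Type I interferons such as IFNB1 bind the receptor IFNAR1/IFNAR2, and type III interferons such as IFNL1 bind IFNLR1 with IL10RB. Both receptors act through JAK kinases to form ISGF3, which contains STAT2 and IRF9 and binds the interferon-stimulated response element (ISRE) in target promoters. Cells make these interferons when sensors such as RIG-I (gene DDX58) detect foreign RNA, and the factor IRF3 can switch on a subset of the same targets without interferon. Double-stranded RNA, including some siRNAs, is a known trigger of this system, which is why the targets are often read in siRNA experiments.

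Libraries held from 61257859 to 69755291 counts, and the libraries numbered 3 had the lowest total in either group. NUF2 itself was 14.8, 14.5 and 12.2 FPKM in siCtrl and 1.53, 2.05 and 1.56 FPKM in siNUF2 (log2 fold change -2.99 ± 0.17 SE, adjusted p = 5.1e-04), so the target followed the labels in all 6 libraries. The 6 epithelial markers summed to 587 to 751 FPKM, with KRT7 at 354 to 512 FPKM, and 1 of the 6 was listed at 0 in each siCtrl library. The 4 mesenchymal markers summed to 500 to 561 FPKM, most of it from VIM at 452 to 521 FPKM. Of the thyroid follicular markers, NKX2-1 was at 14.6 to 21.5 FPKM, while TG, which encodes thyroglobulin, was at or near 0. The 5 leukocyte markers in the table summed to 10.3 FPKM in siCtrl 1 and to 1.35 to 2.26 FPKM in the other 5 libraries. LYZ, a lysozyme of myeloid cells, gave most of that sum, with 1039 counts in siCtrl 1, 58 in siNUF2 1 and 0 elsewhere.

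Promoters are shown first for genes on which the results turn: ISG15, IFIT1 and IFI44, which were high in the libraries numbered 3, and MX1, IFIT5 and IRF9, which were not. Each stretch runs from 250 bases before to 30 bases into the transcript, 5′ to 3′ in the direction of the gene, taken from RefSeq on GRCh38.p14. Capitals mark a core of the ISRE, spelled GAAANNGAA and searched on both strands, where N is any base. Neighbouring copies may overlap and then appear as a single run of capitals.
ISG15: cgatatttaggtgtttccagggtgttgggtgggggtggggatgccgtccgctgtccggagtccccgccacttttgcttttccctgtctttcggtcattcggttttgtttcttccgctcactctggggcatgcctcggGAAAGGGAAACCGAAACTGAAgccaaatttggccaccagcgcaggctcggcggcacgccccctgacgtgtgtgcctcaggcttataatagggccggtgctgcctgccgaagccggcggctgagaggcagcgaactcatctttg
IFIT1: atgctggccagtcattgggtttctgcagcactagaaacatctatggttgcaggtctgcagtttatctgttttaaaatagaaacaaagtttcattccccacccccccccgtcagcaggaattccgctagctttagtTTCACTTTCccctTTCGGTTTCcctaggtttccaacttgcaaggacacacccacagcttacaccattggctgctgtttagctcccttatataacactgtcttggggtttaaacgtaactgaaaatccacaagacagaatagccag
IFI44: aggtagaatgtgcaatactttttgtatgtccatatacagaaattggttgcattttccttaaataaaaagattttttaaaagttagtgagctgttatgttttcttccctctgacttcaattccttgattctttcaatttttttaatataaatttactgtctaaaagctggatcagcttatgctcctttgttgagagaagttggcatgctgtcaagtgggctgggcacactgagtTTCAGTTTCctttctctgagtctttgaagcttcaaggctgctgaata
MX1: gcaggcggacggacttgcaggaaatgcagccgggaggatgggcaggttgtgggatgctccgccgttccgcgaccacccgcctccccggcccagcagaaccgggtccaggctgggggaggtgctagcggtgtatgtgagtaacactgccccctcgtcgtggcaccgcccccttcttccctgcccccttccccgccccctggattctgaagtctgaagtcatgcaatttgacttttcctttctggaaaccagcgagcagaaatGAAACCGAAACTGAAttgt
IFIT5: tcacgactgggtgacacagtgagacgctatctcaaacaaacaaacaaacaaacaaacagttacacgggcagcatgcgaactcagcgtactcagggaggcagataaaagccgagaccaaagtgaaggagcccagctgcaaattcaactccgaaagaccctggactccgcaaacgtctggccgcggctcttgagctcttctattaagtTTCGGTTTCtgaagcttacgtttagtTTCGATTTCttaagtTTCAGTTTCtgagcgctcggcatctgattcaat
IRF9: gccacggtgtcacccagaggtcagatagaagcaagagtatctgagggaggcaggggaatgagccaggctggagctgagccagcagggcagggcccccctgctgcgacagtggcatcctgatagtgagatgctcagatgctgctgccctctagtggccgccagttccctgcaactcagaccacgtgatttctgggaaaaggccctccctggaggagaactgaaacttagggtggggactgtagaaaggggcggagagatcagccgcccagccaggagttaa
All of these genes lie on the plus strand. The stretches are at chr1:1013247-1013526 (ISG15), chr10:89392373-89392652 (IFIT1), chr1:78649539-78649818 (IFI44), chr21:41420308-41420587 (MX1), chr10:89414318-89414597 (IFIT5) and chr14:24161015-24161294 (IRF9). ISG15 held 3 overlapping copies that began 113, 107 and 101 bases before the start. IFIT1 held 2 copies, and IFI44 held 1 copy 17 bases before the start. In MX1 the 2 overlapping copies began 11 and 17 bases after the start, inside the first exon. IFIT5 held 3 copies near the start. These letters were not found in the IRF9 stretch.

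Of the 43 genes, 33 matched a promoter in the RefSeq table, and 21 of these 33 (63.6%) held the ISRE core in the full window from 250 bases before to 50 after the start. The share was 8.11% of all 35116 promoters in that table and 6.52% of the 12677 promoter entries of genes tested. The motif GAS, spelled TTCNNNGAA, which is the same on both strands and is the site of interferon-gamma signalling, was in 7 of 33 (21.2%) against 7.66% of all promoters. A match describes letters in a window and is not a measured binding site.

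None of the 34 tested genes was higher in siNUF2 than in siCtrl past the threshold, and 3 were lower. These were IRF9, the DNA-binding part of ISGF3, IFNAR1, a chain of the type I interferon receptor, and IFIT5, an RNA-binding effector. Counts were tested in edgeR (quasi-likelihood) with group alone in the model, and p-values were adjusted by Benjamini-Hochberg over all genes tested. Among the 11725 genes it called 3.99% in either direction, 1.53% higher and 2.46% lower in siNUF2, against 0 higher and 3 lower of 34 (8.82%). Before adjustment, 1 of the 34 (IFI16) was higher and 5 were lower at p under 0.05. The share of all genes at this unadjusted level was not counted, so these counts have no background beside them. DESeq2 called 4 lower and 0 higher, beside 558 lower and 407 higher of all 11725 genes tested. With limma on log2(FPKM + 1), 3 were lower and 0 higher, beside 254 lower and 129 higher of all genes tested. When any 1 of the 6 libraries was left out, or with no filter on low values, 0 genes of the set were past the threshold, with all 3 fold changes still below 0.

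With the replicate number as a block, the spread fell and 5 of the 34 (14.7%) were lower, the added genes being IRF1 and EIF2AK2, and again 0 were higher. The same fit called 14.5% of all genes tested, 6.64% higher and 7.91% lower. Before adjustment, this fit had 2 of the 34 higher (IFI16 and OASL) and 6 lower at p under 0.05, again without a share of all genes to set them against. The calls depended on the libraries. With both libraries numbered 1 left out, the blocked fit called IFI44 (log2 fold change 0.66, adjusted p = 0.00581) and IFIT1 (0.54, adjusted p = 0.0150) higher. IFIT5 then missed the threshold (adjusted p = 0.0556). Of all 11725 genes tested, that fit called 504 higher and 689 lower.

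IRF9 was 1.66, 1.43 and 1.50 FPKM in siCtrl 1 to 3 and 0.752, 0.507 and 0.746 FPKM in siNUF2 1 to 3. All siNUF2 libraries lay below all siCtrl libraries, with a fold change of -1.15 ± 0.24 SE on the log2 scale (adjusted p = 0.0401) and of -1.16 ± 0.20 with the block (adjusted p = 0.00956). The mean of IRF9 over all libraries (1.10 FPKM) passed the filter with 1.53 FPKM in siCtrl and 0.668 FPKM in siNUF2, and with no filter on low values its adjusted p was 0.127. IRF9 shares its span on chromosome 14 of GRCh38 (24161265 to 24166565, plus strand) with the annotated gene AL136295 on the same strand, so reads of the pair may have been divided by the counting.

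STAT2, the partner of IRF9 in ISGF3, was 4.75, 4.15 and 4.63 FPKM in siCtrl and 3.25, 3.85 and 3.96 FPKM in siNUF2. The groups did not overlap, but the fold change of -0.27 ± 0.13 SE (log2) missed the threshold without (adjusted p = 0.331) and with the block (adjusted p = 0.180). Such separation was common: it held for 23.9% of all genes tested and for 6 of the 34, namely STAT2 and the 5 genes called with the block.

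IFNAR1 was 9.22, 7.83 and 8.27 FPKM in siCtrl and 5.85, 5.62 and 6.01 FPKM in siNUF2, with every siNUF2 library below every siCtrl library (log2 fold change -0.51 ± 0.10 SE, adjusted p = 0.0305, and 0.00724 with the block). Its partner IFNAR2 was between 3.47 and 4.05 FPKM in siCtrl and between 2.80 and 3.66 FPKM in siNUF2. The IFNAR2 difference of -0.21 ± 0.15 SE (log2) did not pass (adjusted p = 0.547).

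IFIT5 was 6.99, 6.85 and 6.61 FPKM in siCtrl and 4.31, 4.44 and 5.05 FPKM in siNUF2. The fold change was -0.55 ± 0.12 SE on the log2 scale (adjusted p = 0.0468, and 0.0197 with the block), in the same direction within every number. The libraries of IFIT1, IFIT2 and IFIT3 overlapped between siRNAs.

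EIF2AK2 encodes PKR, a kinase that stops translation when it binds double-stranded RNA. It was 6.06, 6.46 and 6.64 FPKM in siCtrl and 4.59, 5.05 and 5.09 FPKM in siNUF2, again without overlap (log2 fold change -0.36 ± 0.10 SE, adjusted p = 0.0914, and 0.0161 with the block). IRF1, a regulatory factor induced by interferon-gamma, was 2.96, 3.04 and 3.54 FPKM in siCtrl and 1.65, 2.22 and 2.87 FPKM in siNUF2 (log2 fold change -0.48 ± 0.21 SE, adjusted p = 0.271). With the block it was at -0.51 ± 0.14 SE with an adjusted p of 0.0461. The EIF2AK2 and IRF1 spans overlap annotated genes on the other strand, and the strand setting of the counting is not given in the sources used here.

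The 5 largest rises in fold change were IFI44, IFIT1, IRF7, IFI16 and BST2, and none passed. IFI16, a nuclear DNA sensor, was 16.5, 16.7 and 13.9 FPKM in siCtrl and 22.9, 16.6 and 20.3 FPKM in siNUF2 (log2 fold change 0.36 ± 0.13 SE, adjusted p = 0.201). IRF7, which drives later interferon genes, was 1.74, 1.41 and 1.37 FPKM in siCtrl and 2.14, 2.16 and 1.61 FPKM in siNUF2 (log2 fold change 0.40 ± 0.22 SE, adjusted p = 0.407). BST2, the membrane protein tetherin, was 6.17, 10.3 and 8.04 FPKM in siCtrl and 7.58, 14.4 and 8.36 FPKM in siNUF2, where number 2 was the highest in both groups (log2 fold change 0.33 ± 0.30 SE, adjusted p = 0.633). IFI44 and IFIT1 belong to the genes that followed the library number.

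**Figure D1:**
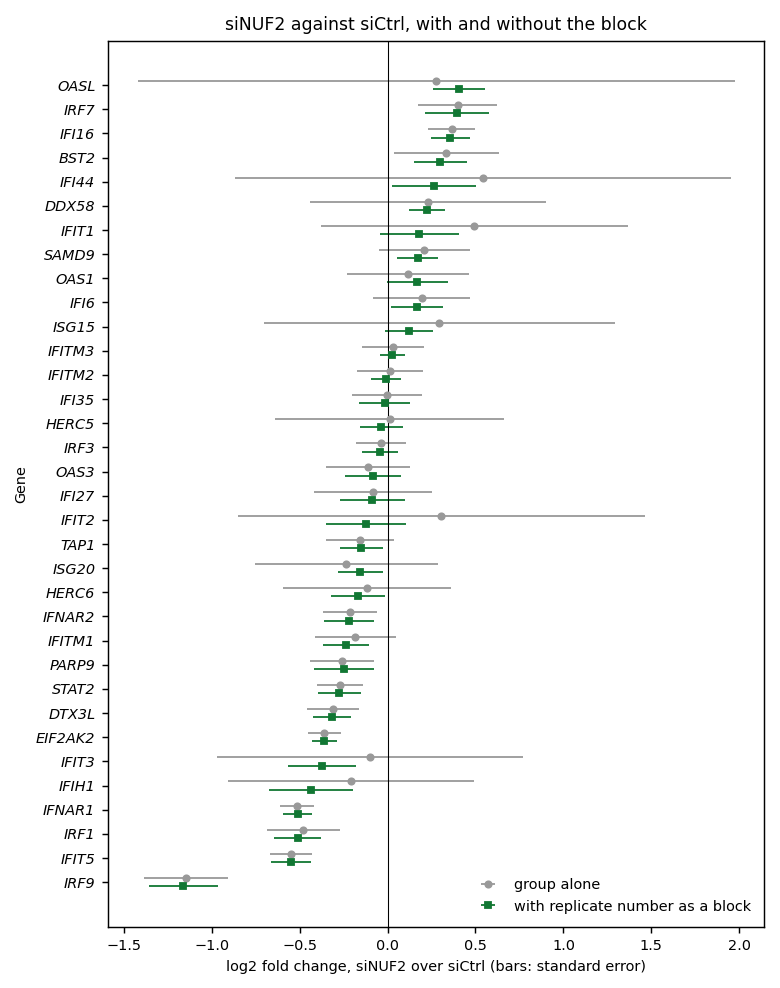
Log2 fold change of siNUF2 over siCtrl on the x axis for the 34 tested genes, ordered on the y axis by the blocked value, as points with bars of 1 standard error. Grey circles are the fit with group alone and green squares the fit with the replicate number as a block. IRF9 lies farthest to the left, and the widest grey bars, such as those of OASL and IFI44, shrink with the block.

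The median log2 fold change over the 34 genes was -0.06, beside 0.01 over all genes tested. It was 0.21 without siCtrl 3, 0.16 without siNUF2 1 and -0.37 without siNUF2 3, so its direction rested on single libraries. The 3 numbers differed in this respect. Within number 1, 29 of the 34 were lower in siNUF2 and 5 were higher, with a median difference of -0.41 (log2 of the FPKM ratio). Within number 2, 20 were higher and 14 lower, with a median of 0.04, and within number 3, 16 were higher and 18 lower, with a median of -0.02. Over all genes tested, 50.7% were lower in siNUF2 within number 1, and 47.5% and 47.0% were higher within numbers 2 and 3. Each of these is a comparison of 1 library with 1 library.

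For a subset of the genes, the libraries differed by number. In both groups, the library numbered 3 held far more RNA of these interferon-stimulated genes than the libraries numbered 1 and 2. The subset comprised DDX58, IFIH1, OASL, IFIT1, IFIT2, IFIT3, ISG15, ISG20, IFI44, HERC5 and HERC6. In bulk RNA, a change in all cells and a stronger change in few cells cannot be told apart.

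OASL, an OAS family protein without synthetase activity that acts on RIG-I, was 0.201, 0.363 and 12.2 FPKM in siCtrl 1 to 3 and 0.242, 0.580 and 14.4 FPKM in siNUF2 1 to 3. The library numbered 3 stood 43.2-fold above the mean of the others in siCtrl and 35.1-fold in siNUF2. No value of numbers 1 and 2 approached those of number 3 in either group. The counts behind these values were 57, 104 and 3183 in siCtrl and 66, 164 and 3647 in siNUF2.

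IFI44, a cytoplasmic protein of uncertain function, was 2.06, 0.842 and 21.1 FPKM in siCtrl and 1.39, 1.36 and 31.9 FPKM in siNUF2. ISG15, a ubiquitin-like modifier and a standard readout of the response, was 12.1, 11.8 and 77.9 FPKM in siCtrl and 10.1, 13.5 and 99.8 FPKM in siNUF2. For both genes, number 3 was above all 4 other libraries whichever siRNA was used, and the values of the groups overlapped.

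The IFIT proteins bind viral RNA and block its translation. IFIT1 was 2.08, 2.13 and 8.93 FPKM in siCtrl and 1.38, 2.74 and 14.1 FPKM in siNUF2. IFIT2 was 1.79, 2.54 and 16.2 FPKM in siCtrl and 0.939, 2.53 and 21.5 FPKM in siNUF2. IFIT3 was 11.0, 9.62 and 45.3 FPKM in siCtrl and 5.24, 8.31 and 47.1 FPKM in siNUF2. These 3 genes were high in number 3 in both groups, and IFIT2 and IFIT3 were lowest in siNUF2 1. Their spans on chromosome 10 lie within that of LIPA on the other strand in the annotation.

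RNA sensors were also high in number 3. DDX58 was 3.19, 2.65 and 10.9 FPKM in siCtrl and 3.40, 3.26 and 12.7 FPKM in siNUF2. IFIH1, which encodes the sensor MDA5, was 1.01, 1.06 and 3.06 FPKM in siCtrl and 0.438, 0.916 and 3.02 FPKM in siNUF2. DHX58, the third of these helicases, was not tested for its low mean, and read 0.604, 0.674 and 1.56 FPKM in siCtrl and 0.304, 0.696 and 1.48 FPKM in siNUF2. EIF2AK2 did not follow this pattern (log2 fold change of number 3 over number 1 0.15 ± 0.09 SE).

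Of the enzymes that attach ISG15 or resemble them, HERC5 was between 1.95 and 2.28 FPKM in the 4 libraries numbered 1 and 2, and 7.38 and 7.65 FPKM in number 3. HERC6 was between 0.809 and 1.19 FPKM in those 4 libraries and 2.58 and 2.49 FPKM in number 3. ISG20, an exonuclease, was between 1.46 and 1.71 FPKM in them and 5.07 and 3.85 FPKM in number 3. In none of these 3 genes did a library numbered 1 or 2 reach those numbered 3.

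**Figure D2:**
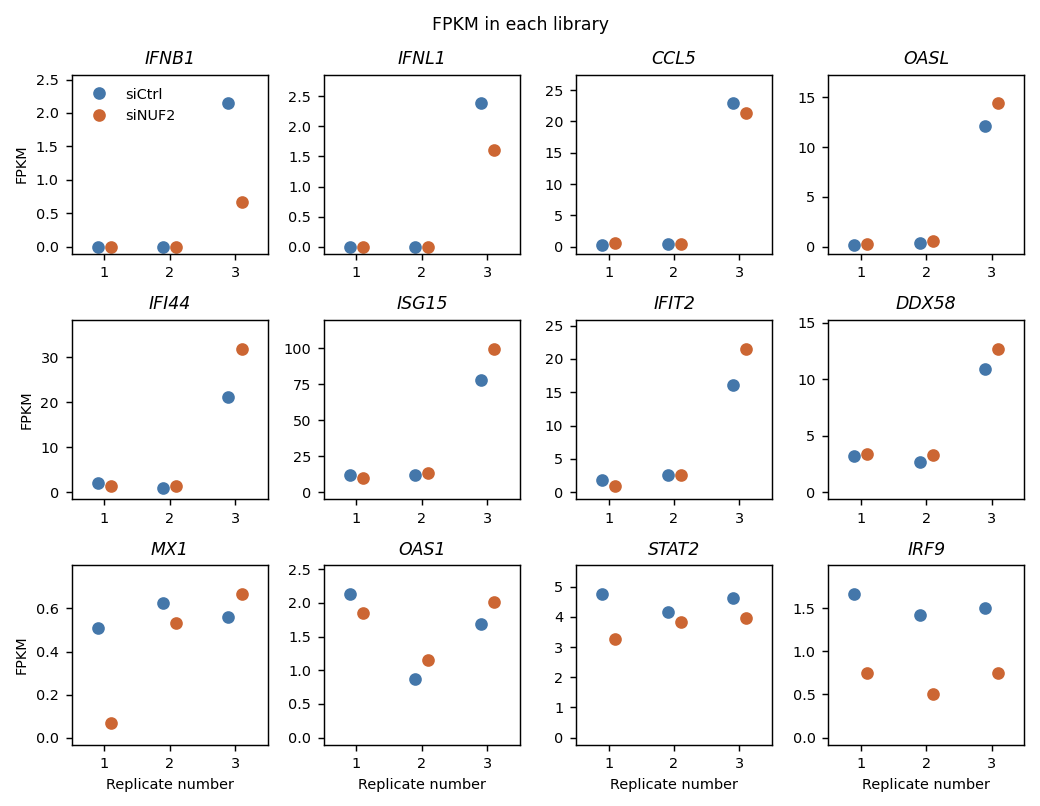
FPKM in each of the 6 libraries on the y axis, by replicate number on the x axis, for 12 genes, with siCtrl in blue and siNUF2 in orange and 1 point per library. From IFNB1 to DDX58 both points of number 3 lie above the rest, while MX1 is lowest in siNUF2 1, and STAT2 and IRF9 separate by siRNA.

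An F-test of the number in a model with group and number (edgeR, adjusted over all genes tested) called 14 of the 34 genes (41.2%) and 7.6% of all genes tested. Number 3 was higher than both number 1 and number 2 at an adjusted p under 0.05 for the 11 genes above, 32.4% of the 34, against 0.904% of all genes tested. Of the 106 genes of the whole table that met this rule, 11 (10.4%) belonged to the set. OASL and IFIH1 had a mean under 1 FPKM over numbers 1 and 2, and so passed the filter through number 3. Without them 9 of 32 remained, beside 91 (0.784%) of the 11600 genes with such a mean of at least 1 FPKM. With no filter on low values, the F-test called 0 of the 32985 genes. With 1 library left out it called 13 to 20 of the 34, beside 5.17% to 11% of all genes tested. That single libraries differ in these genes was known when the set was chosen, so the test describes these 6 libraries.

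No gene of the set met the rule in the other direction, which 0.418% of all genes tested did. Number 1 was higher than both others for 0 of the 34 (0.256% of all genes tested) and lower for 1, OASL (0.281%). Number 2 was higher for 0 (1.17%) and lower for 0 (0.964%).

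The largest contrasts were those of OASL, at 5.92 ± 0.21 SE (log2, number 3 over number 1) and 4.83 ± 0.20 SE (number 3 over number 2). For ISG15 they were 3.00 ± 0.18 SE and 2.80 ± 0.17 SE, and for IFI44 3.89 ± 0.32 SE and 4.56 ± 0.33 SE. The smallest among the 11 were those of HERC6, at 1.44 ± 0.19 SE and 1.14 ± 0.19 SE. Over all genes tested, the median contrast of number 3 over number 1 was -0.00177 and of number 3 over number 2 -0.00558, and over the 34 genes these medians were 0.45 and 0.31. When the genes tested were ordered by the smaller of these contrasts, 9 of the first 30 belonged to the set and 3 more were other interferon pathway genes. Among the 11600 genes with a mean of at least 1 FPKM over numbers 1 and 2, which leaves out OASL, IFIH1, CCL5 and CXCL11, these counts were 8 and 2.

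**Figure D3:**
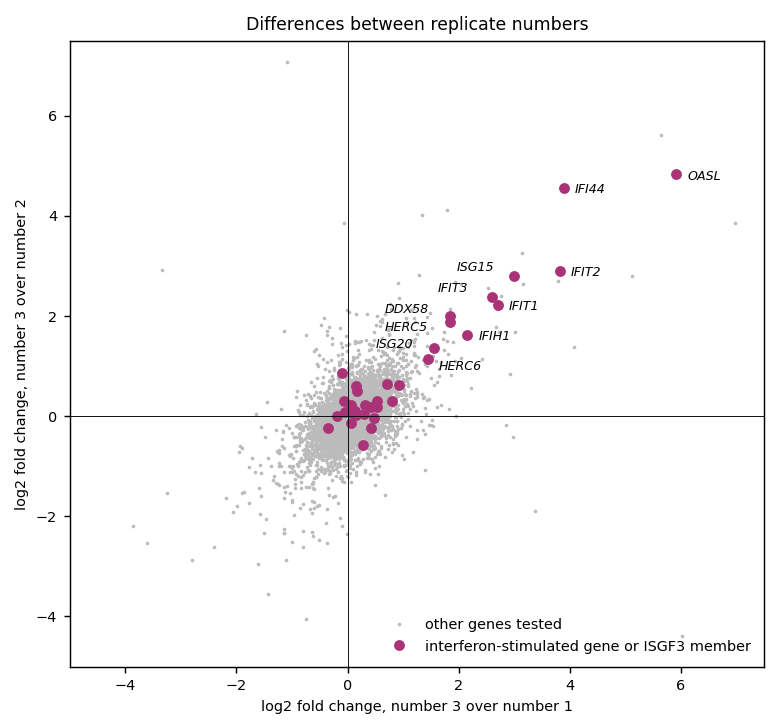
Log2 fold change of number 3 over number 1 (x axis) and over number 2 (y axis) for all 11725 genes tested, 1 point per gene, with the 34 genes of the set in purple and those above 1 on both axes named. The 11 named genes lie along the diagonal in the upper right, with OASL and IFI44 farthest out, while the other genes of the set lie among the grey points, and 13 other genes tested lie outside the axes.

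Within number 3, siNUF2 was above siCtrl for some of the 11 genes and below it for others. The ratio of siNUF2 3 to siCtrl 3 was above 1 for 8 of the 11 genes (72.7%) and ran from 0.758 (ISG20) to 1.58 (IFIT1). Of all genes tested, 47.0% were higher in siNUF2 within number 3. These are ratios of 1 library to 1 library, with no replicate behind them.

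The rise in number 3 did not extend to all interferon-stimulated genes. MX1, a dynamin-like GTPase that is among the best known type I interferon targets, was 0.511, 0.625 and 0.561 FPKM in siCtrl and 0.0666, 0.531 and 0.666 FPKM in siNUF2. It was flat in siCtrl, and its low value was siNUF2 1, with 45 counts against 360 to 439 in the other libraries. MX2 stayed at or below 0.101 FPKM in all 6 libraries. USP18, which removes ISG15 and restrains the receptor, was 0.753, 0.631 and 0.853 FPKM in siCtrl and 0.0499, 0.344 and 0.653 FPKM in siNUF2. For USP18, number 3 was thus the highest in both groups.

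RSAD2 encodes viperin, an antiviral enzyme. It was 0.352, 0.394 and 0.584 FPKM in siCtrl and 0.00850, 0.498 and 1.12 FPKM in siNUF2, or 5 counts in siNUF2 1 and 135 to 382 counts elsewhere. CMPK2, its neighbour on chromosome 2 with an overlapping end, was 0.127, 0.0947 and 0.108 FPKM in siCtrl and listed at 0, then 0.144 and 0.293 FPKM, in siNUF2. XAF1, a partner of apoptosis inhibitors, was 0.384, 0.0735 and 0.0513 FPKM in siCtrl and listed at 0, then 0.0192 and 0.0326 FPKM, in siNUF2. siNUF2 1 thus held the lowest value of MX1, MX2, RSAD2, CMPK2, XAF1 and USP18. The high XAF1 value was that of siCtrl 1, the library with the most RNA of leukocyte markers, and the part of these markers in it was not tested.

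OAS1, a synthetase that activates RNase L, was 2.13, 0.867 and 1.69 FPKM in siCtrl and 1.85, 1.15 and 2.01 FPKM in siNUF2. Here number 2 was lowest in both groups, and number 3 was not above number 1 in siCtrl. OAS3 was likewise lowest in number 2, with 2.54 FPKM in siCtrl 2 and 2.99 FPKM in siNUF2 2. OAS2, below the filter, was 0.937, 0.393 and 1.31 FPKM in siCtrl and 0.555, 0.683 and 1.64 FPKM in siNUF2, with number 3 highest in both groups. IFI44L, next to IFI44 on chromosome 1, was highest in number 1, with 0.824 FPKM in siCtrl 1 and 0.792 FPKM in siNUF2 1 against 0.185 to 0.481 FPKM in the other 4 libraries. OASL and IFI44 thus parted from OAS1 and IFI44L within the same families.

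ISGF3 itself did not follow the number. STAT2 differed by 0.13 ± 0.15 SE between numbers 3 and 1 and by 0.10 ± 0.15 SE between numbers 3 and 2 on the log2 scale, and IRF9 by -0.06 ± 0.24 SE and 0.30 ± 0.24 SE. IRF3, the factor activated by the RNA sensors, was between 10.6 and 14.9 FPKM in all 6 libraries with no call in either test. The receptor chains IFNAR1 and IFNAR2 were not called by the F-test of the number either (adjusted p = 0.587 and 0.696).

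The genes with the most RNA in the set were IFITM3, IFITM2, IFITM1, ISG15 and IFIT3. IFITM3, a membrane protein that blocks virus entry, was 206, 245 and 296 FPKM in siCtrl and 197, 269 and 285 FPKM in siNUF2. IFITM2 was 71.5, 91.0 and 93.7 FPKM in siCtrl and 62.7, 99.9 and 92.0 FPKM in siNUF2. IFITM1 was 72.5, 91.1 and 80.9 FPKM in siCtrl and 46.0, 91.2 and 74.5 FPKM in siNUF2. Number 1 was the lowest number for all 3 in both groups, and none was called between siRNAs. They are near-identical neighbours on chromosome 11 and the spans of IFITM1 and IFITM2 overlap, so the division of reads among them is uncertain.

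The F-test of the number also called IFITM2, IFITM3 and SAMD9, with smaller contrasts. SAMD9, an antiviral translation inhibitor, was 2.91, 2.95 and 4.16 FPKM in siCtrl and 2.91, 3.12 and 5.38 FPKM in siNUF2, or 0.72 ± 0.14 SE (log2) for number 3 over number 1. The remaining tested genes, TAP1, PARP9, DTX3L, IFI6, IFI27 and IFI35, were called in neither test. IFI6 was between 9.10 and 17.4 FPKM and IFI27 between 1.01 and 2.35 FPKM, with number 3 highest in both groups. DTX3L, an E3 ligase, was at -0.31 ± 0.15 SE (log2, siNUF2 over siCtrl, adjusted p = 0.321).

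**Figure D4:**
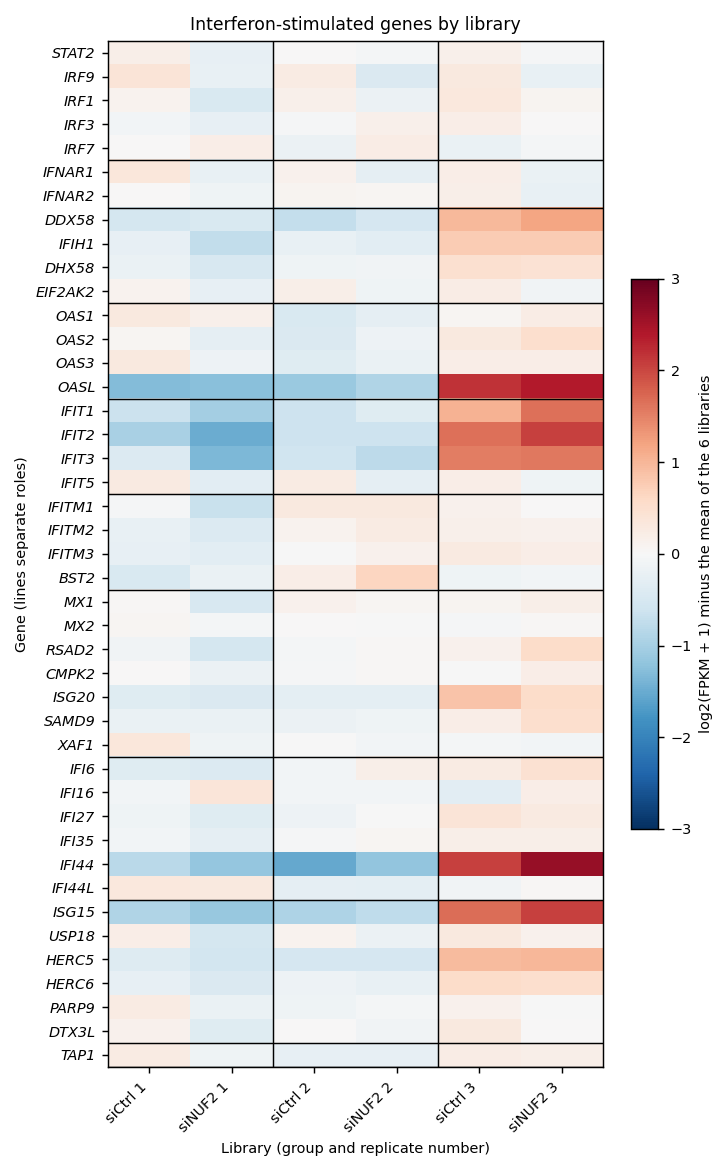
All 43 genes in rows, grouped by role, and the 6 libraries in columns, ordered by replicate number. The colour gives log2(FPKM + 1) minus the mean of the 6 libraries, from blue (lower) to red (higher), and the red block in the columns siCtrl 3 and siNUF2 3 covers OASL, IFI44, ISG15, IFIT1 to IFIT3 and DDX58, while IRF9 and IFNAR1 alternate by siRNA.

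Counting all 43 genes, number 3 was the highest number in both groups for 23 (53.5%), number 1 for 2 and number 2 for 2. Among all genes tested these shares were 16.6%, 18.3% and 18.6%. The summed FPKM of the 43 genes without IFITM1, IFITM2 and IFITM3 was 157, 151 and 341 in siCtrl 1 to 3 and 129.8, 156 and 387 in siNUF2 1 to 3. Over the 34 tested genes, the deviations from the group mean of libraries with the same number correlated at 0.931 to 0.982, against 0.415 to 0.541 over the 11691 other genes tested. Libraries numbered 1 and 2 also correlated with each other across groups over the 34 genes (0.642 and 0.743), and both were opposed to number 3 (-0.918 to -0.870). The 3 deviations of a gene in a group sum to 0, so genes far higher in number 3 force this pattern. It is no separate observation, and the 34 include OASL and IFIH1, which passed the filter through number 3. The correlations are descriptions over genes, which are not independent replicates.

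The ligands IFNB1 and IFNL1 had counts in the libraries numbered 3 and in no other library. IFNB1, which encodes interferon-beta, had 134 counts (2.15 FPKM) in siCtrl 3, 41 counts (0.672 FPKM) in siNUF2 3, and 0 counts in each of the other 4 libraries. IFNL1, a type III interferon, had 138 counts (2.38 FPKM) in siCtrl 3, 90 counts (1.61 FPKM) in siNUF2 3 and 0 elsewhere. Against a floor of 3 counts per library, IFNB1 in number 3 was at least 48.9-fold higher than in the other siCtrl libraries and at least 15.0-fold higher than in the other siNUF2 libraries. The same bounds were 50.4-fold and 33.0-fold for IFNL1. The floor allows for the counts of 0 only. The counts in number 3 were taken as observed, without their counting error, and differences between cultures are not covered. IFNL3 had 7 counts in siNUF2 3 and IFNG 7 counts in siCtrl 3, with 0 in the other libraries. IFNA1, IFNA2, IFNA5 and IFNA13 had at most 22 counts in any library.
IFNE, a constitutive type I interferon of epithelia, was 3.53, 2.70 and 3.87 FPKM in siCtrl and 1.45, 2.72 and 1.90 FPKM in siNUF2 (log2 fold change -0.71 ± 0.30 SE, adjusted p = 0.257). It did not follow the number.

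Of the other 81 tested genes of the pathway, listed by role, 4 (4.94%) were called between siRNAs without the block and 11 (13.6%) with it, beside 3.99% and 14.5% of all genes tested, so these shares were near the background. STAT3 was higher in siNUF2, at 12.4, 9.74 and 11.8 FPKM against 7.33, 7.52 and 7.88 FPKM (log2 fold change 0.60 ± 0.11 SE, adjusted p = 0.0255). TRAF3, an adaptor of interferon induction, was also higher (0.76 ± 0.12 SE, adjusted p = 0.0137). IRF2, which competes with IRF1, was lower (-0.91 ± 0.17 SE, adjusted p = 0.0262), as was SAMHD1, a nucleotide hydrolase (-0.60 ± 0.12 SE, adjusted p = 0.0371). With the block the phosphatase gene PTPN11 was added among the higher genes (0.41 ± 0.09 SE, adjusted p = 0.0266). The adaptor MYD88 and the interferon-stimulated genes TRIM34, PARP12, SHFL, PARP14 and ZC3HAV1 were added among the lower ones, with blocked log2 fold changes from -1.26 (TRIM34) to -0.41.

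By role, 1 of 9 further receptors, kinases and STATs was higher and 1 lower without the block, 1 of 13 sensing and induction genes was higher, and 1 of 49 other interferon-stimulated genes was lower. With the block 6 of those 49 were lower and 0 were higher, where 7.91% of all genes tested were lower and 6.64% higher. Without the block 1.53% of all genes tested were higher and 2.46% lower. The median log2 fold change over the 81 genes was -0.07.

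The F-test of the number called 13 of these 81 genes (16.0%, against 7.6% of all genes tested), and 7 (8.64%, against 0.904%) were higher in number 3 than in both other numbers. Of the 76 with a mean of at least 1 FPKM over numbers 1 and 2, 5 were, against 0.784% of all genes with such a mean. The 7 were the chemokine genes CCL5 and CXCL11, DDX60, ZC3HAV1, and HLA-B, HLA-C and B2M of antigen presentation, named here after their values were seen. CCL5 was 0.341, 0.429 and 22.9 FPKM in siCtrl and 0.537, 0.437 and 21.3 FPKM in siNUF2. CXCL11 was listed at 0, then 0.195 and 3.53 FPKM, in siCtrl and 0.0514, 0.281 and 3.38 FPKM in siNUF2. CCL5 and CXCL11 passed the filter through number 3. CXCL10, below the filter, had 224 and 235 counts in number 3 and 0 to 33 counts in the other libraries. IFNLR1, the specific chain of the type III receptor, had 79 and 180 counts in number 3 and 29 to 62 counts elsewhere.

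The summed markers of leukocytes, plasmacytoid dendritic cells and endothelium were not highest in number 3 in either group. The leukocyte markers summed to 2.04 FPKM in siCtrl 3 and 1.56 FPKM in siNUF2 3, with LYZ at 0 counts in both and PTPRC, which marks all leukocytes, at 0 and 4 counts. Of the plasmacytoid dendritic markers, IL3RA and TCF4 had a row. They summed to 0.548 and 0.513 FPKM in number 3, against 0.497 to 0.699 FPKM in the others. CLEC4C and LILRA4 had no row, so a rise in them could not be seen. The 3 endothelial markers summed to 1.07 and 1.15 FPKM in number 3, against 0.686 to 3.28 FPKM in the others. The share of mitochondrial counts was 5.46% in siCtrl 3 and 6.54% in siNUF2 3, within or below the 5.73% to 7.06% of the other libraries. What the libraries numbered 3 shared, such as a day of transfection or a batch of reagent, is not stated, and its part in these values was not tested.

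Among the 11 genes high in number 3, 9 matched a promoter in the RefSeq table and 7 of these held the ISRE core, against 11 of 19 for the other tested genes of the set. The motif GAS was in 0 of these 9 and in 7 of the other 19. As printed above, ISG15, IFIT1 and IFI44 held the core, but so did IFIT5, which fell with siNUF2, and MX1, which was flat in siCtrl. OASL and IFIT2 had no entry in the table. Of the 5 genes lower in siNUF2 with the block, 2 held the ISRE core.

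The antisense strand of the NUF2 siRNA pairs through its bases 2 to 8 with the word TATGGAA. In the longest annotated 3′ UTR of each gene (GENCODE release 44), this word was present in 8 of the 43 genes (18.6%) and in 18.3% of the genes tested that had a 3′ UTR. Of the 5 genes lower with the block, IRF1, IFNAR1 and EIF2AK2 held it, as did 4 of the other 29 tested genes of the set. Over the whole table, 40.5% of the genes lower with the block held the word. The 3 sites are given with 10 bases on either side in the direction of the transcript, the word in capitals.
IRF1: ttttacttttTATGGAAacactgatgg
IFNAR1: tcagtgtttcTATGGAAcaaacttgta
EIF2AK2: aacttttcatTATGGAAtattgaataa
On GRCh38 the IRF1 site is at chr5:132483015-132483041 (minus strand), in exon 10 of 10. The IFNAR1 site is at chr21:33359202-33359228 (plus strand), in exon 11 of 11 of a GENCODE transcript, beyond the end of IFNAR1 in the deposited table. The EIF2AK2 site is at chr2:37102417-37102443 (minus strand), in exon 16 of 16. The shorter word ATGGAA was in the 3′ UTR of all 5 lower genes, IRF9 and IFIT5 included, in 10 of the other 29, in 79.1% of all genes lower with the block and in 51.0% of all genes tested. Whether these words had a part in the lower levels was not tested.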

How the data were processed

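RNA-seq of 8505C cells was analysed, with 3 siCtrl and 3 siNUF2 libraries of poly(A) RNA. Per the labels and the methods, the authors used fastp, HISAT2 on GRCh38 and StringTie. The deposited FPKM were scaled by the authors. The deposited counts are unnormalized whole numbers. Versions, counting tool, annotation release and strand setting are not given in the sources used here. Columns were mapped to samples by name (KD to siNUF2). Library totals of 61257859 to 69755291 limit what low genes can show. Replicates differed by more than counting noise (54.7 to 77.7 times the chi-square of equal libraries), so none was taken as a copy.

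Counts of genes at or above a mean of 1 FPKM were tested with edgeR 4.0.16 in R 4.3.3 (quasi-likelihood, TMM, threshold 0.05 after Benjamini-Hochberg). FPKM are printed as levels. The design has group alone (common dispersion 0.0452, or 0.0218 with the replicate number as a block). Numbers were taken to pair libraries, since over all genes tested the deviations of same-numbered libraries from their group means correlated at 0.426, 0.439 and 0.567. Other pairs were at -0.319 to -0.129, which follows from the positive values because deviations within a group sum to 0. The labels do not say what a number shares. Alternatives were DESeq2 1.42.0 and its size factors, limma 3.58.1 on log2(FPKM + 1) or with 0.1, other filters, the block, and libraries left out.

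The members and gene lists were chosen with earlier results of these data known. Full values are given for STAT2, IRF9, genes past the threshold without or with the block, the 5 largest rises and falls, the 5 highest mean levels, and ISG15, IFIT1, IFIT2, IFIT3, MX1, OAS1 and RSAD2. Of other pathway genes, ligands and up to 10 past the threshold are named. Others named were picked after their values were seen. The code was tested on simulated data. Sequences came from RefSeq (GRCh38.p14) and GENCODE release 44, read with Python 3.11.15 and pandas 2.3.3, and matplotlib 3.10.9 drew the figures.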

Additional observations from a re-analysis of the deposited data

How the results depend on the processing

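The count of members past the threshold was 3, all lower, in the main fit, where 468 of all genes were called. It was 3 with the size factors of DESeq2 (455 genes) and with limma on log2(FPKM + 1) (383 genes), and 4 with DESeq2. It was 2 with limma on log2(FPKM + 0.1) (383 genes) and with a filter at 5 FPKM (340 of 6542 genes). It was 0 with no filter on low values, where 188 of 32985 genes and 1 other pathway gene were called. With the replicate block it was 5, with 1705 genes and 11 other pathway genes called. Leaving out 1 library gave 0 members, 124 to 251 of all genes and 0 to 2 other pathway genes. Leaving out both libraries of a number, chosen after seeing the data, gave 0 members, 0 to 47 of all genes and 0 other pathway genes. With the block and no filter nothing was called in the whole table (0 members, 0 genes), and NUF2 then had an adjusted p of 0.0617 at -2.99. With libraries left out NUF2 lay between -3.14 and -2.85, the latter without number 1 (adjusted p = 0.0577). The blocked fit without number 1 called 2 members higher, 1193 genes and 7 other pathway genes, and without number 3 called 1020 genes and 9 other pathway genes. DESeq2 called 965 genes and 8 other pathway genes, and a filter at 5 FPKM left 2 other pathway genes. The median log2 fold change of members was 0.21 without siCtrl 3 and -0.37 without siNUF2 3. The number effect, 14 members, was 21 with the likelihood ratio test of DESeq2, 10 with a filter at 5 FPKM, 13 to 20 with 1 library left out and 0 with no filter. Of all genes tested, these settings called 18.1%, 11.1%, 5.17% to 11% and 0%, against 7.6% in the main fit. The cause of these differences was not tested. The 9 members under 1 FPKM and most ligands had few counts, and a difference in them may not be detectable at this depth.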
